A study of Mus musculus with 14 samples.

Results

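Distal chromosome 10 of the mouse, taken from position 75000001 to the chromosome's end, held 1733 of the 99033 peaks in 8 peak lists of the Polycomb proteins Suz12 and Ring1b and of the histone mark H3K27me3. Members were every peak that lay in this segment, whatever its width. The segment was selected on the difference between K27M and H3WT cells in these lists, so that contrast in DMSO is given as a description with no test. Of the members, 50 came from the K27M and 4 from the H3WT Suz12 list, and 109 from the K27M and 26 from the H3WT Ring1b list. The H3K27me3 lists gave 67 and 249 peaks in K27M replicates 1 and 2, and 228 and 1000 peaks in H3WT replicates 1 and 2.

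The peaks came from chromatin immunoprecipitation with sequencing (ChIP-seq) of mouse cells labelled PDGF neural stem cells. In the design text the same cells are named after DIPG, diffuse intrinsic pontine glioma, which is a brainstem tumour of children. One line expressed histone H3.3 with the K27M substitution (K27M) and the other wild-type H3.3 (H3WT). Both were kept for 12 days either in 3 µM EPZ6438 (EPZ), an inhibitor of the H3K27 methyltransferase Ezh2, or in the solvent DMSO. In DMSO, Suz12 and Ring1b had 1 library per genotype and H3K27me3 had 2, and H3K27me3 also had 2 libraries per genotype in EPZ. The sources used here do not give the promoter that drove H3.3 or PDGF, nor whether a line was 1 clone. The lists hold no expression values, so the labelled cell type was not checked by expression. Among neural stem and glial progenitor genes, Nes had a Ring1b peak in both genotypes, Pdgfra had Ring1b in K27M and H3K27me3 in all 4 DMSO libraries, and Sox10 had H3K27me3 in H3WT replicate 2. Sox2, Olig1 and Olig2 had no peak in the 8 lists.

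Polycomb proteins keep developmental genes silent through a pair of complexes. PRC2, of which Suz12 is a core subunit, places methyl groups on lysine 27 of histone H3, and PRC1, whose catalytic subunit is Ring1b (gene Rnf2), ubiquitinates histone H2A. In mammals both are found at CpG islands, stretches rich in the CG dinucleotide at gene starts, and Ring1b is also recruited there by variant PRC1 complexes that do not need H3K27me3. In H3.3 K27M, methionine replaces the methylated lysine, and cells with it lose much of the mark while keeping it at some CpG islands.

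Gene starts in the segment fell into classes that differ in their Polycomb peaks, and 4 of their promoters are printed to show the sequence on which each class was seen. They were picked after the values were seen, as a known gene of each class. Each runs 5′ to 3′ from 250 bases before the transcription start to 50 bases after it, from RefSeq annotation of GRCm38.p6, with every CG dinucleotide in capitals. At Gadd45b both Suz12 and Ring1b had a peak in K27M only, at Wif1 Suz12 had a peak in K27M only and Ring1b had one in both genotypes, and at Cdk4 and Kitl Ring1b had a peak in K27M only with no H3K27me3 peak in any DMSO library.
Gadd45b promoter, chr10:80929841-80930140, plus strand: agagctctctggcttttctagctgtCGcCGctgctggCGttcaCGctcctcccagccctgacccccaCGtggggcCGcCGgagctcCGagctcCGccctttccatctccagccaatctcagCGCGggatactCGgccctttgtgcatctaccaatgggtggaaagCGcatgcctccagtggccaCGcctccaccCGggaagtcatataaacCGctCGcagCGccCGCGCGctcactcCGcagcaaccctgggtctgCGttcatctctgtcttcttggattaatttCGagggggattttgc
Wif1 promoter, chr10:121033754-121034053, plus strand: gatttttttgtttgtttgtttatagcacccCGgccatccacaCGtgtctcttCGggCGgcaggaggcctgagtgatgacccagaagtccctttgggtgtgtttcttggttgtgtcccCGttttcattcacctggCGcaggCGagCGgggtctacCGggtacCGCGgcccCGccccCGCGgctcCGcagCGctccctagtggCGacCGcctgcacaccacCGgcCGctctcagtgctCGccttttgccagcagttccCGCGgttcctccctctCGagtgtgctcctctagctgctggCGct
Cdk4 promoter, chr10:127063285-127063584, plus strand: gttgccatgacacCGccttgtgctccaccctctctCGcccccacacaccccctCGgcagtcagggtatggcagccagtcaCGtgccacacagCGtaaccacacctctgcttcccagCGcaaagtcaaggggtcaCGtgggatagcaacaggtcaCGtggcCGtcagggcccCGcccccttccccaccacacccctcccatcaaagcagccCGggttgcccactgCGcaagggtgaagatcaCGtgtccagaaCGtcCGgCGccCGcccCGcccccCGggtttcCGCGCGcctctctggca
Kitl promoter, chr10:100015571-100015870, plus strand: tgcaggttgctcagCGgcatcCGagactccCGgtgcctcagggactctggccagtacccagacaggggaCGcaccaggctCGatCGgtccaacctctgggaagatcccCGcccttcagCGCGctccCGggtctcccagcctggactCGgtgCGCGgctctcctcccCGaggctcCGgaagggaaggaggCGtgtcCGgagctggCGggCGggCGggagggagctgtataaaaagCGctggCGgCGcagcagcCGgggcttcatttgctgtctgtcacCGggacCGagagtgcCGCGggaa
The motif searched was CG, which reads the same on both strands. The 300-base windows held 24 CG at Gadd45b, 25 at Wif1, 22 at Cdk4 and 28 at Kitl. Over 21045 promoters of all chromosomes, 95.5% held at least 1 CG, the median was 13, and 47.3% held 15 or more.

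A peak was called K27M-only where no H3WT peak of the same protein or mark overlapped it by even 1 bp, within the same replicate number for H3K27me3. Suz12 had 48 K27M-only peaks among its 50 K27M peaks in the segment, a share of 96% (exact 95% interval of the count of peaks, 86.3% to 99.5%), where over all chromosomes 61.0% of K27M Suz12 peaks were K27M-only. Ring1b had 86 K27M-only peaks of 109 (78.9%, 70% to 86.1%), where over all chromosomes 37.7% of its K27M peaks were. In the other direction, 1 of 4 H3WT Suz12 peaks and 1 of 26 H3WT Ring1b peaks of the segment had no K27M counterpart, where 25.7% of H3WT Suz12 and 22.0% of H3WT Ring1b peaks did over all chromosomes. Nearly all genotype-specific Suz12 and Ring1b peaks of the segment thus lay in K27M cells. The intervals treat neighbouring peaks of 1 library as independent. The segment was chosen on the contrast of K27M and H3WT, so they are no test against the shares of other parts. On the proximal part of the same chromosome, 12 of 23 K27M Suz12 peaks (52.2%) and 11 of 34 K27M Ring1b peaks (32.4%) were K27M-only. For Ring1b, the share on the other 19 chromosomes and proximal 10 lay between 25% on chromosome 1 and 41.9% on chromosome X. For Suz12 it ran from 37.5% on chromosome 1 to 80% of 45 peaks on chromosome 17, with chromosome X above the segment at 9 of 9.

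**Figure D1:**
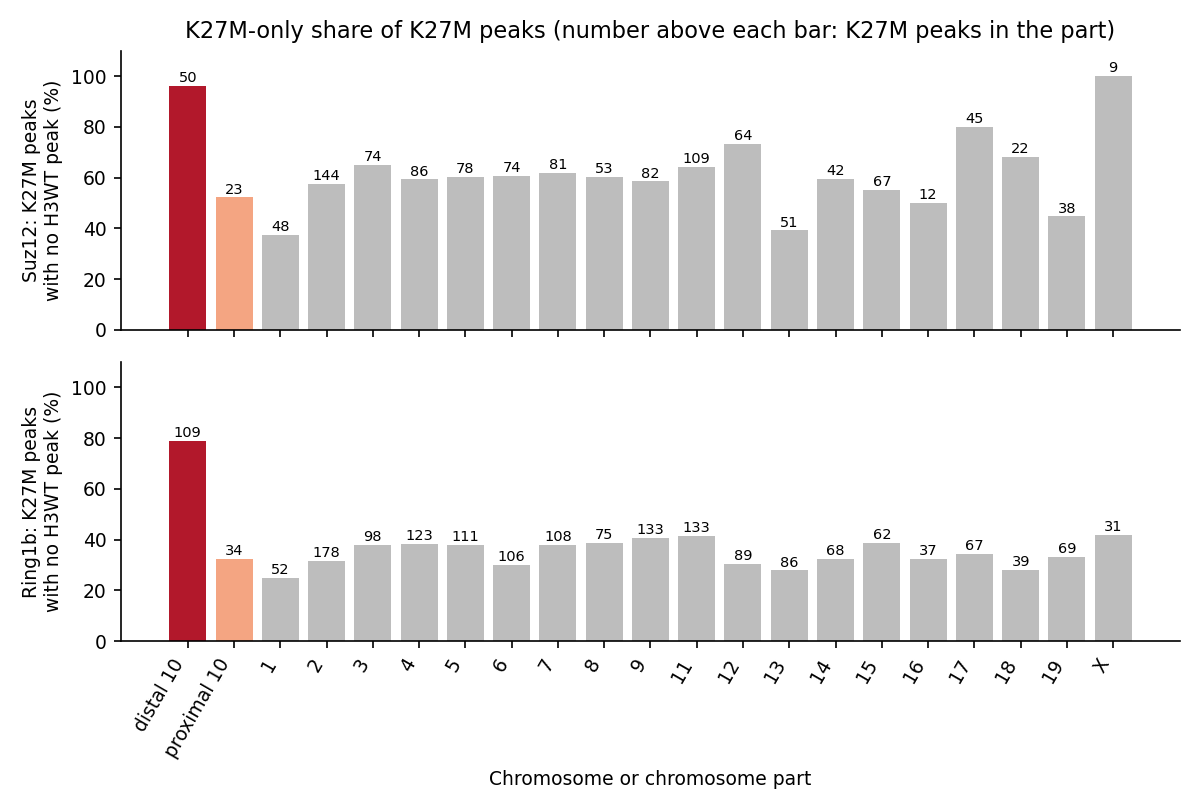
Bars give the percent of K27M peaks with no H3WT peak of the same protein overlapping them, for Suz12 (upper) and Ring1b (lower), by chromosome, with the number of K27M peaks above each bar and 1 library per genotype. Distal chromosome 10 stands at 96% for Suz12 and 78.9% for Ring1b, and proximal chromosome 10 at 52.2% and 32.4%.

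The number of peaks told the same difference. Suz12 had 12.5 times as many peaks in K27M as in H3WT cells within the segment, against 2.3 times on proximal chromosome 10 and 1.91 times on all other chromosomes. Ring1b had 4.19 times as many in the segment, against 0.773 times on proximal chromosome 10 and 0.989 times elsewhere. Peaks covered 195 kb of the segment for Suz12 in K27M and 12.6 kb in H3WT, and 252 kb for Ring1b in K27M and 56.5 kb in H3WT. The segment held 3.99% of all Suz12 peaks in K27M and 0.634% in H3WT, and 6.03% of all Ring1b peaks in K27M and 1.48% in H3WT.

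H3K27me3 peaks were fewer in K27M in the segment, as elsewhere. K27M had 0.294 times as many H3K27me3 peaks as H3WT in replicate 1 and 0.249 times in replicate 2, against 0.19 and 0.155 times on proximal chromosome 10 and 0.174 and 0.303 times on the other chromosomes, or 0.193 and 0.216 times without chromosome X. Both replicates thus had fewer peaks in K27M, and the ratio was above that of the other chromosomes in replicate 1, and in replicate 2 above it without chromosome X and lower with it. By covered length, K27M had 0.429 and 0.326 times the H3WT value in the segment, against 0.406 and 0.227 times on proximal chromosome 10 and 0.305 and 0.303 times elsewhere. The ratio of lengths was higher in the segment than in both other parts in either replicate, but it also counts peaks called in K27M alone. The segment held 2.31% and 1.58% of the K27M covered length in replicates 1 and 2, and 1.66% and 1.46% of the H3WT covered length. The peak lists give positions without heights, and the amount of DNA of the segment was not measured in either line. More Suz12 or Ring1b per copy of the segment and more copies of it therefore cannot be told apart in these data.

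**Figure D2:**
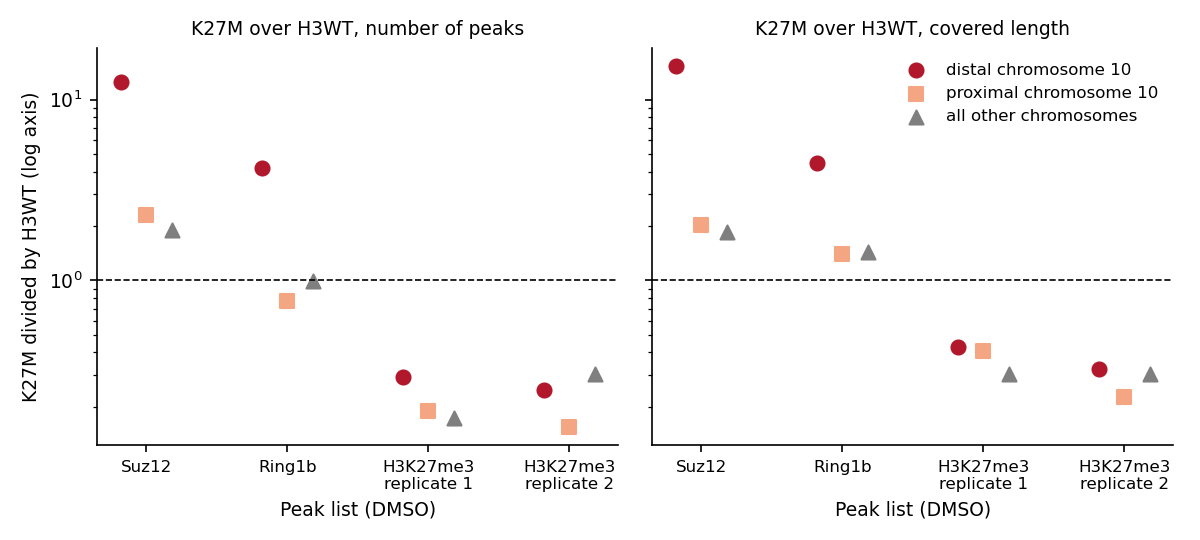
Points give the K27M value divided by the H3WT value on a log axis, for the number of peaks (left) and the covered length (right) of each DMSO list, on distal chromosome 10 (red circles), proximal chromosome 10 (orange squares) and all other chromosomes (grey triangles), with a dashed line at equality. Suz12 and Ring1b lie at 12.5 and 4.19 for peaks on distal chromosome 10, and both H3K27me3 replicates lie below 1 in all 3 parts.

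Along the segment, K27M had more Ring1b peaks in every window that held one. In consecutive windows of 5 Mb from 75 Mb, K27M Ring1b had 14, 25, 7, 9, 4, 8, 2, 5, 4, 17 and 14 peaks, and H3WT Ring1b 2, 4, 1, 2, 1, 3, 1, 1, 1, 6 and 4. The last window, at the end of the chromosome, had none in either genotype. On proximal chromosome 10, 2 of 14 windows with a Ring1b peak had more in K27M, 7 had fewer and 5 were equal. Over the other chromosomes, 143 of 424 windows had more in K27M and 165 had fewer. Passing over windows without a peak, this was the longest stretch of windows with more K27M than H3WT Ring1b peaks on the chromosomes analysed, at 11, followed by 7 on chromosome 7 and 6 on chromosome 4. For Suz12, 10 of the 10 segment windows with a peak had more in K27M, as did 210 of 312 on the other chromosomes. On proximal chromosome 10, 6 of 9 had more, 0 had fewer and 3 were equal. The Suz12 stretch of 11 windows began at 65 Mb, before the segment, and chromosome 5 also had one of 11. In K27M-only minus H3WT-only Suz12 peaks, 2 windows of chromosome 11 (21 and 17) stood above the highest of the segment (13).

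**Figure D3:**
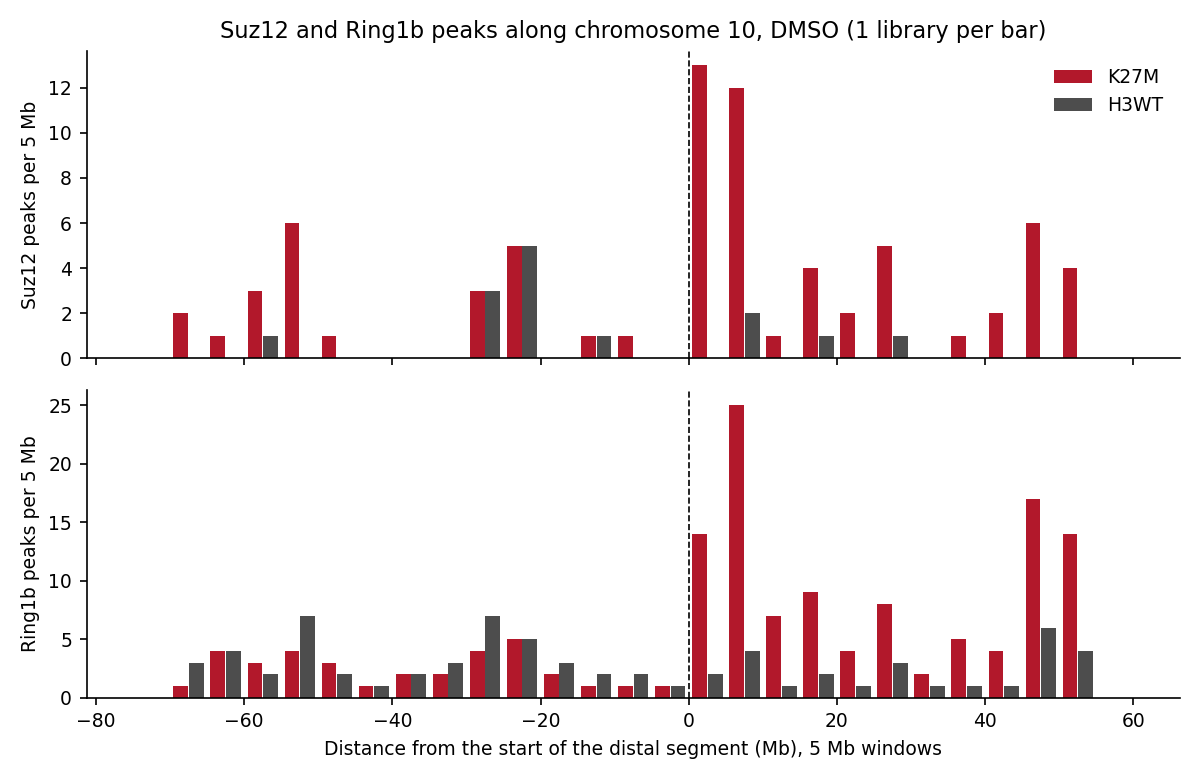
Bars give the number of Suz12 peaks (upper) and Ring1b peaks (lower) per 5 Mb window in K27M (red) and H3WT (grey) cells in DMSO, 1 library each, against the distance in Mb from the start of the distal segment (dashed line). To the right of the line Ring1b is higher in K27M in 11 of 11 windows with a peak, and to its left in 2 of 14.

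The start of the segment fell in a stretch with few peaks. The last Ring1b peak before it ended 3840 kb short of 75 Mb in both genotypes. Inside, the first Ring1b peak began 59.6 kb past 75 Mb in K27M, in the gene Bcr, and 2418 kb past it in H3WT, at Adarb1. For Suz12, the last peak outside ended 5601 kb before the boundary in K27M and 13020 kb before it in H3WT, and the first inside began 547 kb past it in K27M and 5489 kb past it in H3WT. H3K27me3 peaks came closer on both sides, at 1899 and 89.4 kb before the boundary and 544 and 317 kb past it in K27M replicates 1 and 2, and 90.5 and 66.9 kb before it and 540 and 195 kb past it in H3WT.

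K27M-only Suz12 and Ring1b peaks fell into 8 runs in which neighbours lay at most 2 Mb apart, 32.4 Mb in sum, holding 423 of the 642 protein-coding genes of the segment. The largest run, 15.7 Mb from position 79716652 to 95416844, held 26 K27M-only Suz12 and 41 K27M-only Ring1b peaks, where H3WT had 3 Suz12 and 9 Ring1b peaks in all. It went from Hcn2, Plppr3 and Arid3a through Onecut3, Gadd45b, Nfic, Ascl4 and Apaf1 to Socs2. The last run, 11.1 Mb from 117627682 to 128749053, held 12 Suz12 and 23 Ring1b K27M-only peaks, where H3WT had no Suz12 and 11 Ring1b peaks. It held Cpm, Hmga2, Wif1, the microRNA gene Mirlet7i, Cdk4, Gli1 and Nxph4. The first run, 2.56 Mb from 75059634 to 77623217 with Bcr and Lrrc75b, held 5 K27M-only Suz12 and 6 K27M-only Ring1b peaks.

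The 5 runs between were under 1 Mb each. A run of 0.91 Mb at 99106494 to 100016968 held 4 K27M-only Ring1b peaks at Poc1b, Dusp6 and Kitl, and H3WT had no peak of either protein there. The run around Alx1 and Slc6a15, 0.379 Mb from 102990449 to 103369211, held 4 of each protein, with 1 H3WT Suz12 and 2 H3WT Ring1b peaks. A run of 0.172 Mb from 108161345 to 108333576 had Ring1b at Ppp1r12a and Pawr, a run of 0.763 Mb from 110744672 to 111507241 had Ring1b at E2f7, Csrp2, Nap1l1 and Phlda1, and a run of 0.785 Mb from 114802281 to 115587542 had Suz12 at Trhde and Ring1b at Thap2 and Lgr5. Gene-rich stretches without such peaks lay beside them. Between positions 77623218 and 79716651, 70 genes in 2.09 Mb had no Suz12 or Ring1b peak in either genotype, although H3K27me3 had 2 and 16 peaks in K27M replicates 1 and 2 and 19 and 94 in H3WT. The 76 genes after 128749054 likewise had no Suz12 or Ring1b peak.

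Genes were assigned a peak where it touched a window reaching 1 kb each way from their start, or from both ends for the 118 of 642 genes whose start was not in the table used. A gene was called K27M-only where its window held a K27M peak and no H3WT peak. For Ring1b this held at 67 of the 642 genes (10.4%), against 325 of 20989 genes (1.55%) elsewhere, and 1.81% of all genes. At 1 of the 67, Onecut3, the K27M peak reached an H3WT peak that lay outside the window. For Suz12 it held at 25 genes (3.89%), against 279 (1.33%) elsewhere and 1.41% of all genes. In the other direction, 1 gene (0.156%) was H3WT-only for Ring1b, against 226 (1.08%) elsewhere. It was Ppfia2, which encodes a liprin scaffold protein of synapses. No gene of the segment was H3WT-only for Suz12, against 91 (0.434%) elsewhere. Only 3 genes, Lrrc75b, Gadd45b and Plppr3, were K27M-only for both proteins. Of the 25 Suz12 genes, 7 had Ring1b in both genotypes and 15 had no Ring1b in the window, and of the 67 Ring1b genes, 63 had no Suz12 there. By this window the K27M-only genes of the proteins were mostly different genes, and the same counts were not made elsewhere. Peaks of the 2 proteins overlapped only in part outside the segment too, and the overlapping share was lower in the segment. Of 48 K27M-only Suz12 peaks, 20 (41.7%) overlapped a K27M Ring1b peak, against 61% of 716 elsewhere. Of 86 K27M-only Ring1b peaks, 10 (11.6%) overlapped a K27M Suz12 peak, against 18.5% of 596 elsewhere.

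The K27M-only sites of both proteins also differed in H3K27me3. Of 48 K27M-only Suz12 peaks, 41 (85.4%) overlapped H3K27me3 peaks of both H3WT libraries and 37 (77.1%) those of both K27M libraries, against 96.8% and 89.4% of 716 elsewhere. One of the 48, within Gng7, lay outside the peaks of all 4 libraries. Of 86 K27M-only Ring1b peaks, 63 (73.3%) lay outside the H3K27me3 peaks of all 4 DMSO libraries and 13 (15.1%) overlapped those of both K27M libraries. Elsewhere in the genome, 225 of 596 K27M-only Ring1b peaks (37.8%) lay outside H3K27me3, as did 374 of 1103 shared ones (33.9%). Shared Ring1b peaks of the segment were between, with 10 of 23 (43.5%) outside. K27M-only Ring1b peaks of the segment were narrow, with a median of 1.44 kb against 1.37 kb elsewhere, and 50 of 86 (58.1%) lay at a gene start, against 40.4% elsewhere. No test was run on these shares, since the K27M-only class was part of the choice of the segment.

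**Figure D4:**
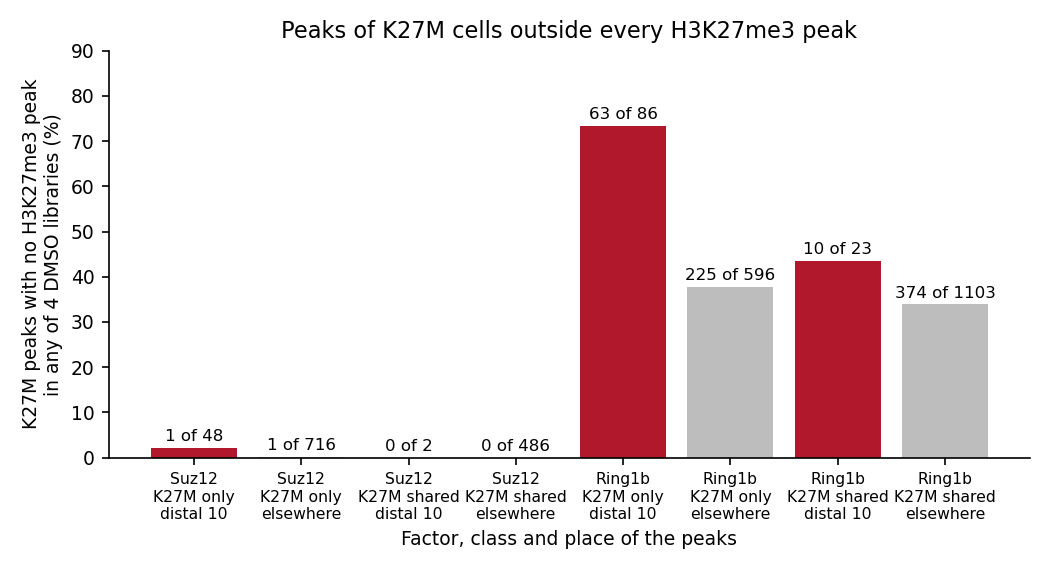
Bars give the percent of K27M Suz12 or Ring1b peaks that overlapped no H3K27me3 peak of the 4 DMSO libraries, split into K27M-only and shared peaks, on distal chromosome 10 (red) and elsewhere (grey), with the counts above each bar. K27M-only Ring1b peaks of distal chromosome 10 reach 63 of 86, against 225 of 596 elsewhere.

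Promoters with Ring1b were rich in CG. At the 54 promoters (46 genes) with K27M-only Ring1b and no H3K27me3, the 300-base windows held a median of 31 CG and 94.4% held 15 or more, against a median of 29 at 192 promoters of the same class elsewhere. The 11 promoters with K27M-only Suz12 had a median of 19 CG, and 54.5% of them held 15 or more, against a median of 22 and 71.4% elsewhere. With Ring1b in both genotypes, 15 promoters had a median of 37 and 93.3% held 15 or more, and 3 promoters with K27M-only Ring1b and H3K27me3 had a median of 24. High CG content was thus found with Ring1b in every class, and not with the class free of H3K27me3 alone. The 515 promoters of the segment with no peak in any of the 8 lists had a median of 11. Cdk4 and Kitl, printed above, belong to the first class with 22 and 28 CG.

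The values of single genes are the length under peaks within 10 kb of the gene start, or of both ends where the start was not in the table, so that neighbours can share a peak. Genes were grouped by 4 hand-made lists that do not hold every gene of their kind. Over all 642 genes of the segment, 10.4% had K27M-only Ring1b at the window, 3.89% K27M-only Suz12, 3.43% Ring1b in both genotypes and 9.35% H3K27me3 in both H3WT libraries, and the lists are given beside these shares. A list of transcription factors and patterning genes had 28 members in the segment. Of these, 7 (25%) had K27M-only Ring1b and 1 (3.57%), Gli1, had K27M-only Suz12, and 3 (10.7%) had H3K27me3 in both H3WT libraries, of which 2 kept it in both K27M libraries. Alx1, a homeobox factor of craniofacial mesenchyme, had Suz12 over 22.7 kb in K27M and 4.68 kb in H3WT. Its Ring1b covered 35.3 kb in K27M and 8.12 kb in H3WT, and its H3K27me3 covered 37.3 and 39.9 kb in K27M replicates 1 and 2, and 28.8 and 35.8 kb in H3WT. Alx1 thus had all 3 in both genotypes, and all 3 over more length in K27M.

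Onecut3, a homeobox factor of the Onecut family, had 19.2 kb of Suz12 in K27M and 6.95 kb in H3WT. Its Ring1b covered 15.4 kb in K27M and 2.34 kb in H3WT, and the H3WT peaks lay beyond 1 kb from the gene's ends, so the gene counts as K27M-only for Ring1b. Its H3K27me3 covered 19.9 and 28.2 kb in K27M and 27.6 and 31.5 kb in H3WT. The mark was thus shorter in K27M in both replicates, where Suz12 and Ring1b were wider in K27M. Arid3a, a DNA-binding factor of the ARID family that the list did not hold, had 33 kb of Suz12 in K27M in peaks of up to 21.5 kb, and none in H3WT. Ring1b at Arid3a covered 5.4 kb in K27M and 1.56 kb in H3WT, and H3K27me3 25.3 and 32.1 kb in K27M and 30.4 and 32.4 kb in H3WT. Neighbours of Arid3a had Suz12 as well. Kiss1r, the kisspeptin receptor, had 9.27 kb of Suz12 in K27M and 0 in H3WT, and R3hdm4 9.22 kb and 0. Most of this came from a separate K27M peak of 7.1 kb that did not overlap Arid3a. Wdr18, which shared the Arid3a peaks, had 9.18 kb of Suz12 in K27M and 0 in H3WT.

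Other factors had a K27M-only Ring1b peak with no H3K27me3 peak of the 4 DMSO libraries within 1 kb of their start or ends. Ring1b covered 3.75 kb at Hmga2, an AT-hook chromatin protein of embryonic and tumour cells, in K27M and 0 in H3WT, and H3K27me3 covered 0 and 2.13 kb in K27M and 0 in both H3WT replicates. At Nfic, a nuclear factor I gene, Ring1b covered 2.71 kb in K27M and 0 in H3WT. At Hmg20b, a high mobility group protein of the LSD1 complex that the list did not hold, it covered 2.96 kb in K27M and 0 in H3WT. The repressors Zbtb7a and E2f7 and the LIM protein gene Csrp2 had 1.72, 1.56 and 1.35 kb of Ring1b in K27M and 0 in H3WT. Gli1, the transcription factor that Hedgehog signalling induces, had 1.98 kb of Suz12 in K27M and 0 in H3WT, with no Ring1b in either, and H3K27me3 over 2.45 and 7.63 kb in K27M and 8.42 and 17.5 kb in H3WT.

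Of 34 listed genes of signalling ligands, receptors and antagonists in the segment, 6 (17.6%) had K27M-only Ring1b, 3 (8.82%) K27M-only Suz12, and 2 (5.88%) Ring1b in both genotypes. H3K27me3 lay at 6 (17.6%) in both H3WT libraries, of which 1 kept it in both K27M libraries and 1 lost it in both. The list also took in genes of other kinds, and among those counted Gadd45b, Chst11 and Epyc are not ligands, receptors or antagonists. Wif1, a secreted inhibitor of Wnt proteins, had 9.31 kb of Suz12 in K27M and 0 in H3WT, and 11.8 kb of Ring1b in K27M and 2.27 kb in H3WT. H3K27me3 at Wif1 covered 11.2 and 19.8 kb in K27M and 6.93 and 18.7 kb in H3WT, so Wif1 kept the mark. Gadd45b, a stress-induced growth arrest gene, had 5.3 kb of Suz12 and 2.18 kb of Ring1b in K27M and 0 of both in H3WT, with H3K27me3 over 2.81 and 5.74 kb in K27M and 4.08 and 5.44 kb in H3WT. Socs2, a suppressor of cytokine signalling, had 3.67 kb of Suz12 in K27M and 0 in H3WT, and Ring1b over 5.29 kb in K27M and 4.93 kb in H3WT. Dusp6, a phosphatase that switches off ERK, had 3.15 kb of Ring1b in K27M and 0 in H3WT, and no H3K27me3 in the 4 libraries. Kitl, the ligand of the receptor Kit, had 1.4 kb of Ring1b in K27M and 0 in H3WT, and Ntn4, a netrin, 1.6 kb and 0, and neither had H3K27me3.

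A list of cell cycle and p53 pathway genes had 28 members in the segment, of which 6 (21.4%) had K27M-only Ring1b, 3 (10.7%) K27M-only Suz12 and 2 (7.14%) Ring1b in both genotypes. The list also took in neighbours of Mdm2 and Cdk4, and among those counted Cpm, Tspan31 and Btbd2 are not core genes of either process. Cdk4, the cyclin D-dependent kinase that drives entry into S phase, had 4.59 kb of Ring1b in K27M and 0 in H3WT, from a peak of 1.85 kb at its start and peaks at its neighbours Marchf9 and Tspan31, which are nearby enough to share the window. Cdk4 had no Suz12 peak and no H3K27me3 peak in any DMSO library. Apaf1, the core of the apoptosome, had 1.33 kb of Ring1b in K27M and 0 in H3WT, and Ppm1h had a K27M-only Ring1b peak of 1.15 kb. Nuak1, a kinase related to AMPK, had 2.12 kb of Suz12 in K27M and 0 in H3WT, and Cpm, a membrane carboxypeptidase beside Mdm2, had 4.13 kb and 0. Mdm2, the ubiquitin ligase of p53, Stk11 and Frs2 had no peak in any of the 8 lists, at or within 10 kb of their start.

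Of 31 listed neuronal and glial genes, 6 (19.4%) had Ring1b in both genotypes, 3 (9.68%) Ring1b in K27M only and 4 (12.9%) Suz12 in K27M only, and 7 (22.6%) had H3K27me3 in both H3WT libraries, of which 4 kept it. The share with K27M-only Ring1b was thus close to that of all genes of the segment. Nxph4, a neurexophilin that binds neurexins, had 8.23 kb of Suz12 and 2.31 kb of Ring1b in K27M and 0 of both in H3WT, and H3K27me3 over 12.6 and 13.9 kb in K27M and 13.1 and 13.7 kb in H3WT. Slc6a15, a brain transporter of neutral amino acids, had 3.27 kb of Suz12 in K27M and 0 in H3WT, and 4.89 kb of Ring1b in K27M and 3.42 kb in H3WT. Hcn2, a pacemaker ion channel, had 1.98 kb of Suz12 in K27M and 0 in H3WT, and Grin3b, a subunit of NMDA receptors, 2.25 kb and 0. Plppr3, a membrane protein of neurons, had 2.29 kb of Suz12 and 1.31 kb of Ring1b in K27M and 0 of both in H3WT, with H3K27me3 over 0 and 10.7 kb in K27M and 5.3 and 10.7 kb in H3WT. At Anks1b, a postsynaptic scaffold gene, Suz12 had peaks of 1.06 kb in K27M and 1.01 kb in H3WT that did not overlap each other.

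Other K27M-only genes carried long peaks. Lrrc75b, a leucine-rich repeat gene, had 9.5 kb of Suz12 and 3.97 kb of Ring1b in K27M and 0 of both in H3WT, with H3K27me3 over 12.6 and 25 kb in K27M and 19 and 27.2 kb in H3WT. Ctdsp2, a phosphatase of RNA polymerase II, had 4.09 kb of Ring1b in K27M and 0 in H3WT, in 3 peaks, and no H3K27me3. B4galnt1, an enzyme of ganglioside synthesis, had 3.48 kb of Suz12 in K27M and 0 in H3WT, with 1.68 kb of Ring1b in K27M and 1.59 kb in H3WT. Mirlet7i lay in a K27M-only Ring1b peak of 1.9 kb, one of 2 among the 41 microRNA genes of the segment in the RefSeq table. The share of microRNA genes elsewhere was not counted, so this is no result about microRNA genes. The mature let-7 product of Mirlet7i, with the seed (bases 2 to 8) in capitals, is printed because its gene lies under such a peak.
mmu-let-7i-5p, chr10:122985698-122985719, minus strand: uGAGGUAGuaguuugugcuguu

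Where both genotypes had Ring1b in the segment, the K27M peaks were wider. At 22 of 23 shared sites the K27M peak was wider than the H3WT peaks it overlapped, with a median width ratio of 1.34 (0.906 to 6.59), against 817 of 1103 sites elsewhere with a median of 1.16. The largest differences were at Onecut3, with 15.4 kb in K27M and 2.34 kb in H3WT, at Wif1, with 11.8 kb in K27M and 2.27 kb in H3WT, and at Alx1, with 37 kb in K27M and 8.12 kb in H3WT. The exception was a site in Anks1b of 3.03 kb in K27M and 3.35 kb in H3WT. Suz12 had 2 shared sites, of 16.6 kb in K27M and 6.95 kb in H3WT at Onecut3, and of 18.8 kb in K27M and 4.68 kb in H3WT at Alx1, and elsewhere 239 of 486 shared sites were wider in K27M.

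**Figure D5:**
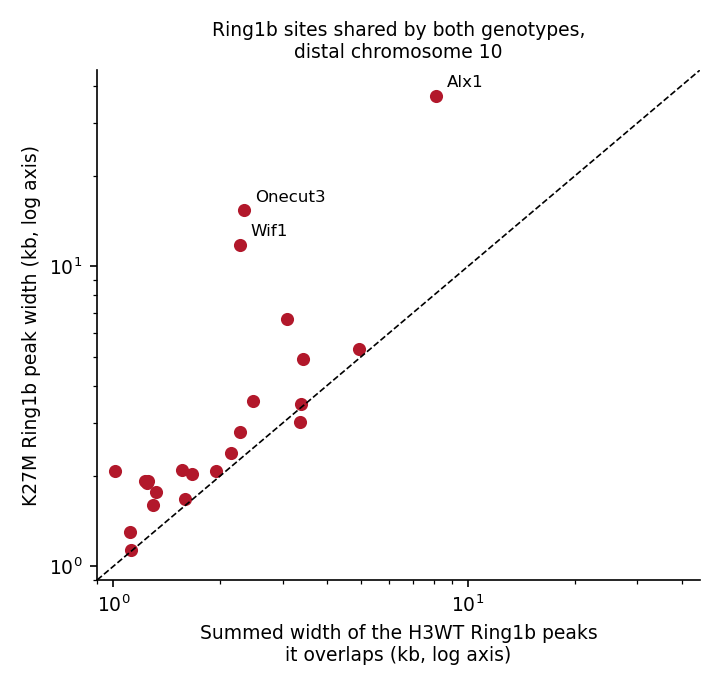
Each of 23 points is a Ring1b peak of K27M cells on distal chromosome 10 that an H3WT Ring1b peak overlaps, with its width in kb (vertical, log axis) against the summed width in kb of the H3WT peaks it overlaps (horizontal, log axis), 1 library per genotype. The dashed line marks equal width, and 22 points lie above it.

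Most H3WT sites of H3K27me3 in the segment had no K27M peak, 175 of 228 (76.8%) in replicate 1 and 806 of 1000 (80.6%) in replicate 2, where over all chromosomes 85.7% and 79.6% had none. The other 53 (23.2%) in replicate 1 and 194 (19.4%) in replicate 2 were overlapped by a K27M peak, against 14.2% and 20.4% in the rest of the genome, or 15.9% and 15.9% without chromosome X. H3K27me3 lay at 60 of the 642 genes in both H3WT libraries, and 23 of these (38.3%) kept it in both K27M libraries, 29 in 1 and 8 in neither. Elsewhere 884 of 2059 genes (42.9%) kept it in both, and 369 (17.9%) had it in neither, against 13.3% in the segment. The 8 that lost it at the window were Icosl, Olfr1358, Creb3l3, Epyc, Nts, Gm40755, Pawr and Tbc1d30. Of these, Pawr, a proapoptotic gene, and its neighbour Gm40755 had a K27M-only Ring1b peak at the window. Tbc1d30 had one in its body, and 3.14 kb of H3K27me3 in K27M replicate 2 within 10 kb of its ends. Nts, the gene of neurotensin, had H3K27me3 over 0 kb in both K27M libraries and over 6.38 and 19.5 kb in H3WT.

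K27M-only H3K27me3 peaks were few. They numbered 6 of 67 (8.96%, 3.36% to 18.5%) in replicate 1 and 19 of 249 (7.63%, 4.66% to 11.7%) in replicate 2, where over all chromosomes 4.55% and 4.51% were K27M-only. All 6 of replicate 1 lay between 102989657 and 103068596 around Alx1 and in Lrriq1, and 5 of them overlapped a peak of the other H3WT replicate that the first H3WT replicate lacked. Of the 19 of replicate 2, 9 overlapped no gene and 10 overlapped one. The genes were Ascl4, at its start, where Ring1b was K27M-only too, Igf1, Lgr5, Hmga2, Erbb3, Col18a1, 2610008E11Rik and, with 3 peaks, Wif1. An H3WT peak of replicate 2 also reached the 1 kb window of Ascl4. Within 10 kb, the mark in replicate 2 covered 7.15 kb in K27M and 8.44 kb in H3WT at Ascl4. It was also longer in H3WT at Igf1 and Erbb3, longer in K27M at Lgr5, Hmga2, Col18a1 and Wif1, and absent from both at 2610008E11Rik. At gene starts, no gene of the segment (0 of 642) had the mark in both K27M replicates while lacking it in H3WT. Over all chromosomes, 0.0786% of genes in replicate 1 and 0.111% in replicate 2 had a K27M peak and no H3WT peak.

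The EPZ lists were not used to choose the segment. In EPZ the segment held 2 and 7 H3K27me3 peaks in K27M replicates 1 and 2, and 6 and 2 in H3WT replicates 1 and 2. As a share of all peaks of the library these were 0.995% and 2.06% in K27M (mean 1.53% ± 0.752 SD, n = 2) and 2.16% and 0.738% in H3WT (1.45% ± 1 SD, n = 2), so the genotypes overlapped. The difference of 0.16 on the log2(percent + 0.1) scale had an exact two-sided permutation p of 1 over 6 relabellings, of which the smallest possible is 0.333. For covered length the shares were 0.497% and 1.39% in K27M and 0.848% and 0.609% in H3WT, a difference of 0.20 with an exact permutation p of 1. Whether the replicates were separate cultures is not stated in the labels, so these p-values measure the spread between the libraries, which may be technical. All 4 EPZ libraries had a peak just before Onecut3, of 3.19 and 3.52 kb in K27M and 4.39 and 4 kb in H3WT. All 4 also had one at Alx1, of 2.29 and 8.5 kb in K27M and 8.32 and 8.04 kb in H3WT. At both sites Suz12 and Ring1b had peaks in both genotypes in DMSO, as they did at Anks1b, which had no EPZ peak. Among EPZ peaks of at least 2 kb alone, the shares were 1.45% and 2.58% in K27M and 1.38% and 1.01% in H3WT, which did not overlap, a difference of 0.67 with an exact permutation p of 0.333, the smallest possible. For covered length at that width they were 0.541% and 1.43% in K27M and 0.7% and 0.641% in H3WT, a difference of 0.36 with an exact permutation p of 1.

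Suz12 and Ring1b had 1 library per genotype, so none of the differences in their peaks has a replicate check. The K27M Suz12 list, with 1252 peaks, was longer than the H3WT list, with 631, and among its 631 widest peaks 24 of the 26 in the segment were K27M-only, where 46.0% were over all chromosomes. For Ring1b, where the lists held 1808 and 1754 peaks, the widest 1754 gave 82 of 105, where 36.6% were K27M-only over all chromosomes. With peaks under 2 kb left out of the lists of both genotypes, K27M-only peaks numbered 24 of 26 for Suz12 and 13 of 22 for Ring1b. Over all chromosomes 57.5% and 38.2% were K27M-only by that rule. A K27M peak that overlapped only H3WT peaks narrower than 2 kb counts as K27M-only there. The Ring1b count therefore takes in sites that the full lists share, among them Onecut3, Wif1 and Xpot.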

How the data were processed

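ChIP-seq peak lists of 12 libraries of mouse cells were used, 8 of them from DMSO. The 2 IgG libraries were not analysed here. Bowtie 1.1.2 and the mouse build mm10 are named in the submitters' processing notes. The step each was used for, the peak caller, its threshold and control, and the read depth are not given in the sources used here, so intervals cover the counting of peaks only. The deposited lists hold chromosome, start and end, and the score column that the authors deposited was 0 in all 100144 lines, so no peak height could be used. Peak number and width also depend on depth and enrichment, which were not known.

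Touching peaks of a library were joined (21 peaks) and overlaps computed in Python 3.11.15 with pandas 2.3.3, numpy 2.4.6 and SciPy 1.17.1, checked on simulated peaks. Genes, promoters and microRNAs came from RefSeq tables of GRCm38.p6, which shares its chromosome sequences with mm10. Gene values are length under peaks within 10 kb, and shares of K27M-only peaks have exact (Clopper-Pearson) intervals. These treat peaks as independent and serve as no test, since the segment was chosen on the genotype contrast. Under EPZ the genotypes were compared by exact permutation, and genotypes in DMSO were described only. Alternatives changed the overlap rule (at least 50% of the peak, or within 5 kb), the minimum width, the start of the segment (70 or 80 Mb), the H3WT lists compared and the gene window.

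The members and gene lists were chosen with earlier results of these data known. Named genes were taken by length under K27M Suz12 plus Ring1b peaks: up to 12 with K27M-only peaks of both, up to 10 each with Suz12 alone, with Ring1b alone and with either in both genotypes, up to 6 with H3WT-only peaks and up to 6 with gained H3K27me3, plus members of the 4 gene lists with a peak. Bcr, Adarb1, Poc1b, Ascl4, Gng7, Mdm2, Stk11, Frs2, Pawr, Nts, other run boundary genes and the genes with lost or replicate 2 K27M-only H3K27me3 fell outside that rule and were chosen after their values were seen. A gene that this rule takes is not reported here.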

Additional observations from a re-analysis of the deposited data

How the results depend on the processing

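K27M-only counts on distal chromosome 10 depended mainly on peak width. With peaks of at least 2 kb in both genotypes, Suz12 had 24, Ring1b 13, H3K27me3 2 in replicate 1 and 6 in replicate 2, and 13 genes had K27M-only Ring1b. Narrower H3WT peaks were left out too. Some of the Ring1b peaks and genes and of the H3K27me3 replicate 2 peaks counted there were therefore shared in the full lists. Among the 631 widest K27M Suz12 peaks, an alternative chosen after seeing the data, 24 were K27M-only. Counting peaks within 5 kb as shared left 11 for H3K27me3 replicate 2, and comparison with both H3WT libraries left 1 for replicate 1. Every other overlap rule, segment start and gene window gave counts within 1.5 times of those reported, with 35 to 50 peaks for Suz12 and 74 to 91 for Ring1b. Under EPZ, adding the replicate number as a block left the differences at 0.16 for peaks and 0.20 for covered length with an exact permutation p of 1 for both, while leaving out 1 replicate gave -1.04 to 1.37 for peaks and -0.67 to 1.07 for covered length, turned round without replicate 2. Peaks of at least 2 kb gave 0.67 (exact permutation p = 0.333) and 0.36 (p = 1), and a start at 80 Mb gave 0.05 and 0.01 (p = 1 for both). The labels do not say that replicate numbers pair the samples, and same-numbered EPZ libraries did not deviate together, since replicate 2 had the larger share of peaks in K27M (2.06% against 0.995%) and the smaller in H3WT (0.738% against 2.16%). Read depth is unknown, so an absent peak does not show that the protein was absent.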
